A study of Mus musculus with 16 samples.

Results

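Chemokines are small secreted proteins that guide leukocytes along a gradient, each through receptors on the cells it attracts. Tumour necrosis factor (TNF) is known to induce many inflammatory chemokine genes through the transcription factor NF-kB, while other chemokines are made by epithelium without a stimulus. Paneth cells are secretory cells at the base of small intestinal crypts, best known for the alpha-defensins and lysozyme they release, and glucocorticoids are known repressors of many NF-kB target genes.

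The 10 chemokine genes described here were chosen by name, with earlier results of these data known. They are 10 of the 55414 genes in the deposited counts table. By background knowledge, and not by these data, 7 are classed as inducible (Cxcl1, Cxcl2, Cxcl5, Cxcl10, Ccl2, Ccl7 and Ccl20) and 3 as constitutive in epithelium (Ccl25, Cxcl16 and Cx3cl1). The question asked of them is which ones changed after TNF, after DEX, and after TNF given on top of DEX, and whether the inducible and constitutive ones parted. In GRCm39 they lie on chromosome 5 (the 4 Cxcl genes classed as inducible), chromosome 11 (Ccl2, Ccl7 and Cxcl16), chromosome 1 (Ccl20) and chromosome 8 (Cx3cl1, chr8:95498637-95509055, and Ccl25, chr8:4374661-4540760), and all are annotated as protein-coding.

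The libraries came from Paneth cells purified from the small intestine, which the study's methods describe as FACS-sorted from C57BL/6J mice. There were 4 groups with 4 libraries each, 16 in all. Mice were given PBS (saline) or DEX and, 1 h later, PBS or TNF, and were sampled 3 h after this second injection, so that the groups are named PBS+PBS, DEX+PBS, PBS+TNF and DEX+TNF. The labels do not spell out DEX (the usual short form of dexamethasone, a synthetic glucocorticoid), and they give neither doses nor ages. The study describes the sorted samples as coming from single mice, while the labels do not give the mouse behind each library.

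Total counts ran from 7286307 to 15832111 per library, and Paneth cell markers (Lyz1, Mmp7, Itln1, Ang4 and 4 others) took 42.2 to 63.2% of all counts in each library, matching the labelled cell type. The DEX+TNF libraries 3 and 4 stood apart from DEX+TNF libraries 1 and 2, with TNF-responsive chemokine genes close to the levels of the groups without TNF. In DEX+TNF library 4 the summed tuft cell markers were also at 856 CPM (counts per fixed library total, here the raw total), against at most 183 CPM in the libraries of the other groups, and the summed enterocyte markers were at 619 CPM. Within DEX+TNF the summed tuft markers were at 1.56, 0.165, 117 and 856 CPM in libraries 1 to 4, higher where the TNF-responsive chemokine genes were low. Ccl25 went the other way, at 1.45, 2.35, 6.33 and 16.3 normalized CPM in these libraries. High tuft markers did not go with low TNF-responsive genes in PBS+TNF, where library 4 had the highest tuft sum (183 CPM) and the highest Cxcl10 (59.0 normalized CPM). The part of tuft cells and enterocytes in the chemokine levels was not tested. Because the TNF-responsive chemokine genes were low in DEX+TNF libraries 3 and 4, comparisons that rest on this group are given in 2 ways. For the 10 genes they are given with and without both libraries. This choice was made after their low levels had been seen.

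The proximal promoters are shown first, as a description of the genes. Whether a motif match goes with a change after TNF was not tested. Each line gives bases 160 before to 10 after the start site of the canonical GENCODE transcript in GRCm39, 5′ to 3′ along the gene, with matches to the NF-kB consensus on either strand in capitals. Cxcl1, Cxcl2 and Cxcl5 are neighbouring neutrophil chemokine genes, and they carried the identical 11-base match, which reads as the consensus on both strands.

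Cxcl1, chr5:91038934-91039103, plus strand: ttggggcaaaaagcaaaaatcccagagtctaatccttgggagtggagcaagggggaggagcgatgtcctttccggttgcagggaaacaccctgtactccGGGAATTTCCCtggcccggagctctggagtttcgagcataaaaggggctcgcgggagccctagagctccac
Cxcl2, chr5:91051570-91051739, plus strand: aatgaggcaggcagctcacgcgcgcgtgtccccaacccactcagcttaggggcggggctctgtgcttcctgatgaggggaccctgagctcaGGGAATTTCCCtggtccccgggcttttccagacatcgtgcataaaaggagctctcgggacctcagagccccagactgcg
Cxcl5, chr5:90907077-90907246, plus strand: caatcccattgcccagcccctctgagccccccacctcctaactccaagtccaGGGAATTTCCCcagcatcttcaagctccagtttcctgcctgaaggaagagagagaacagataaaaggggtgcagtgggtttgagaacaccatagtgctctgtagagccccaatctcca

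The promoter of Cxcl10, a T cell chemokine gene, had a pair of separate matches, and that of Ccl20, whose product attracts dendritic cells and lymphocytes through Ccr6, had 1.

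Cxcl10, chr5:92496739-92496908, minus strand: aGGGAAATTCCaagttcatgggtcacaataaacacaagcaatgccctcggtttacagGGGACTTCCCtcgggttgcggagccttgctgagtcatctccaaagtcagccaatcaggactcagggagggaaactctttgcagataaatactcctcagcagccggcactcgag
Ccl20, chr1:83094327-83094496, plus strand: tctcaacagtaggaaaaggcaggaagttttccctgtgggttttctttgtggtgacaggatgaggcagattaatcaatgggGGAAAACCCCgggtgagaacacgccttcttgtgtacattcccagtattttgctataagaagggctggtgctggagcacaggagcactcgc

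The match lay at -61 to -51 in Cxcl1, at -69 to -59 in Cxcl2 and at -108 to -98 in Cxcl5, counted from the start site. In Cxcl10 the matches lay at -159 to -150 and at -103 to -94, and in Ccl20 the match lay at -80 to -71 on the opposite strand. Over windows of 300 bases (250 before to 50 after the start), 4.85% of 21627 protein-coding promoters and 5.05% of the promoters of tested genes held such a match. Ccl2, Ccl7, Cx3cl1 and Ccl25 had no match in this window, which says only that these letters are not there, and genes such as Cx3cl1 and Ccl25 have other annotated starts that were not searched. Other motifs were sparse. GAAANNGAA (interferon regulatory factor, 8.78% of all promoters) was found in Cxcl10, TGANTCA (AP-1, 7.16%) in Cxcl10 and Ccl7, ACANNNTGT (the core spacing of a glucocorticoid response palindrome, 5.94%) in Cxcl1, next to but not overlapping its NF-kB match, TTGCNNAA (C/EBP, 10.7%) in Cxcl5 and TATAAA (13.2%) in Ccl7. All motifs were searched on both strands, and a match is a description of the letters and not of binding.

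**Figure D1:**
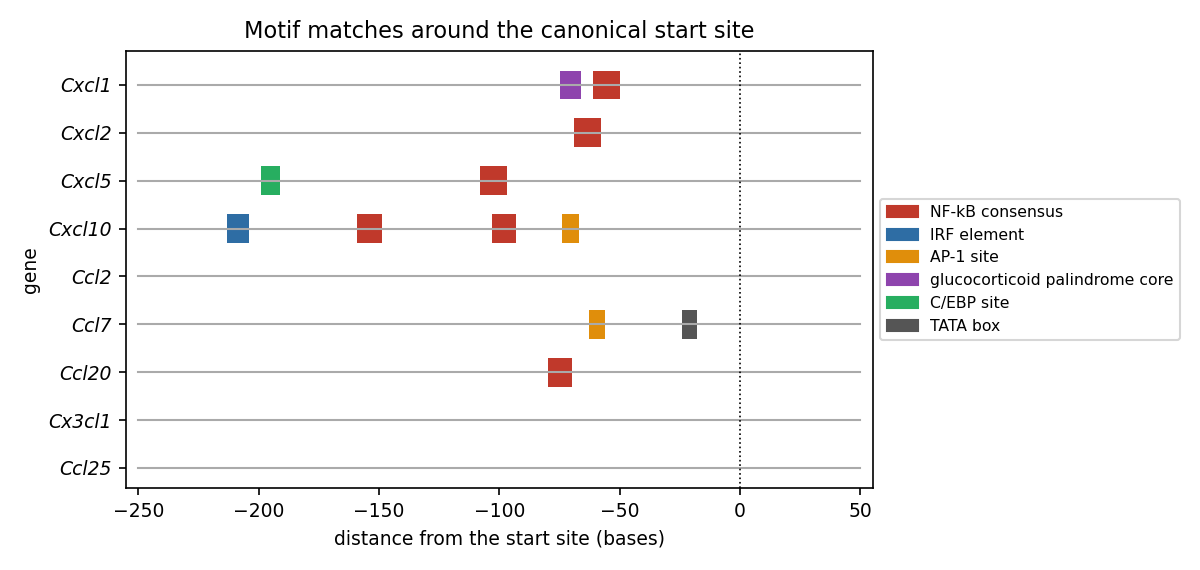
Positions of motif matches in the promoters of the chemokine genes other than Cxcl16, with the distance from the canonical start site in bases on the x axis and 1 gene per row; coloured boxes are matches on either strand and the dotted line is the start site. Cxcl1, Cxcl2, Cxcl5, Cxcl10 and Ccl20 hold NF-kB matches, and Ccl2, Cx3cl1 and Ccl25 hold no match of any kind searched.

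In the PBS+PBS group the constitutive class led. Levels between genes are compared here as normalized CPM per kb of canonical transcript. Ccl25, whose product draws gut-homing lymphocytes through Ccr9, was at 10.5 ± 7.74 CPM per kb (SD, n = 4), above Cx3cl1, the gene for fractalkine, at 1.85 ± 0.679 CPM per kb, with no overlap between libraries. Cxcl16 followed at 0.821 ± 0.190 CPM per kb, below Cx3cl1 in every library, and it did not part from Ccl20 at 0.805 ± 0.582 CPM per kb. Cxcl10 and Cxcl1 stood at 0.0570 and 0.0499 CPM per kb, each from counts in a single library, and Cxcl2, Cxcl5, Ccl2 and Ccl7 had no counts. The part of other cells, such as enterocytes, in the Ccl25 level was not tested.

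After TNF the order was turned over. In PBS+TNF libraries Cxcl10 came first at 38.5 ± 10.6 CPM per kb, followed by Ccl20 at 25.4 ± 6.94 and Cxcl16 at 23.8 ± 2.73 CPM per kb, and the ranges of neighbours in this order overlapped. All 3 lay above Ccl25, then at 7.04 ± 3.52 CPM per kb, in every library. Below it came Cxcl1 at 3.58 ± 1.25, Cx3cl1 at 3.03 ± 1.75 and Cxcl2 at 1.38 ± 0.646 CPM per kb, again with overlapping neighbours. Cxcl5, Ccl2 and Ccl7 remained at or near 0.

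Of the 10 genes, 6 passed the filter on low counts and were tested with edgeR's quasi-likelihood test (Benjamini-Hochberg adjustment over 11809 genes, threshold 0.05). Cxcl1, Cxcl10 and Ccl20 passed it only through the TNF groups (0, 0 and 1 of the 8 libraries without TNF reached its minimum, where 4 were needed), so that they had to differ once tested and their calls are a description. Cxcl16, Cx3cl1 and Ccl25 reached the minimum in all 16 libraries. Cxcl2, Cxcl5, Ccl2 and Ccl7 did not pass and are given by their counts. In PBS+TNF versus PBS+PBS, Cxcl1, Cxcl10, Ccl20 and Cxcl16 were called higher and Cx3cl1 and Ccl25 were not called. Over all genes tested, 12.5% were called in this comparison and 7.15% were called higher, while 10.8% had every PBS+TNF library above every PBS+PBS library.

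**Figure D2:**
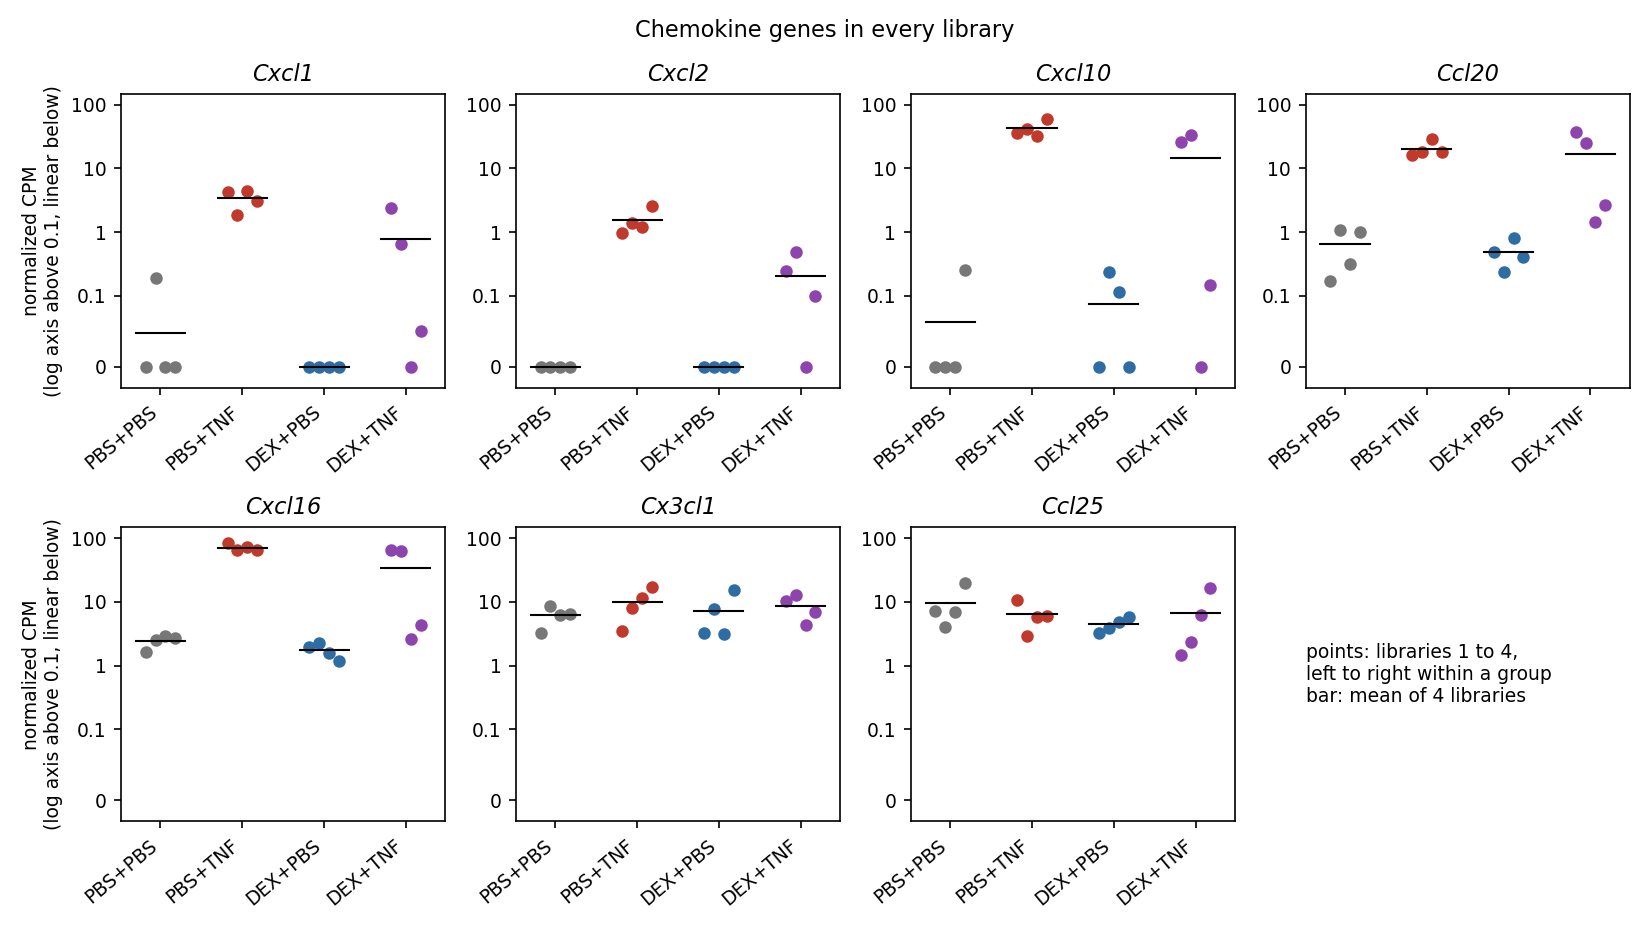
Normalized CPM (y axis, logarithmic above 0.1 and linear below) of 7 chemokine genes in the 4 injection groups; each point is a library, numbered 1 to 4 from left to right, and bars are means of 4 libraries. Cxcl1, Cxcl2, Cxcl10, Ccl20 and Cxcl16 are high in all 4 PBS+TNF libraries and fall apart within DEX+TNF, while Cx3cl1 and Ccl25 overlap across all groups.

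Cxcl1 and Cxcl2 encode ligands of Cxcr2, the receptor that draws neutrophils. Cxcl1 had 22, 31, 64 and 63 counts in PBS+TNF libraries 1 to 4, which is 4.24, 1.87, 4.50 and 3.12 normalized CPM. In PBS+PBS it had 3 counts in library 2 and 0 in the others. The PBS+TNF libraries were thus all above the PBS+PBS ones. Summed over the groups and scaled by depth, this was a ratio of 57.7 (exact 95% limits from counting error 19.4 and 282). The adjusted p from edgeR was 0.0110. Cxcl2 had 5, 23, 17 and 52 counts in PBS+TNF libraries 1 to 4 and 0 counts in all PBS+PBS and DEX+PBS libraries. Against the limit of 3 counts over the group that a count of 0 allows, Cxcl2 was at least 31.1-fold higher with TNF. In the fit without a filter its adjusted p from edgeR was 0.00202, and from DESeq2 4.08e-05. Intervals and limits on counts cover counting error only.

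Cxcl5, which carries the same NF-kB letters as Cxcl1 and Cxcl2, had 2 counts in PBS+TNF library 1, 1 count in PBS+TNF library 4 and 0 in the other libraries. The 3 counts in all allow no fold. Ccl2 and Ccl7, the monocyte chemokine genes, were likewise close to silent. Ccl2 had 2 counts, in PBS+TNF library 4, and Ccl7 had 0 counts in all 16 libraries, which allows up to 0.149 normalized CPM in PBS+TNF library 4 and 0.578 normalized CPM in PBS+TNF library 1. The inducible class thus held both genes that rose and genes not detectable at this depth.

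Cxcl10 encodes an interferon-associated ligand of Cxcr3 that attracts T cells. It had 36.4, 41.7, 32.6 and 59.0 normalized CPM in PBS+TNF libraries 1 to 4, against 0.251 normalized CPM in PBS+PBS library 4 and 0 in PBS+PBS libraries 1 to 3. These are 2536 counts against 2, a ratio of 1220 with a counting interval of 337 to 10100, and the adjusted p from edgeR was 0.00292. Among the 10 genes Cxcl10 ranked 5 per kb in PBS+PBS, from counts in a single library. In PBS+TNF it ranked 1, with a range that overlapped that of Ccl20.

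Ccl20 was low but present without TNF, at 0.171, 1.09, 0.320 and 1.00 normalized CPM in PBS+PBS libraries 1 to 4. With TNF it was at 16.2, 18.4, 28.5 and 18.2 normalized CPM. The groups did not overlap, and the log2 fold change was 5.01 ± 0.86 (SE), with an adjusted p from edgeR of 0.00190. The product of Ccl20 recruits Ccr6-bearing cells, and it is known in gut epithelium mostly from the cells over lymphoid follicles.

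Cxcl16 went against its class. It encodes a membrane-bound ligand of Cxcr6 that also acts as a scavenger receptor. It was at 1.63, 2.55, 2.88 and 2.76 normalized CPM in PBS+PBS libraries 1 to 4 and at 82.6, 64.5, 71.6 and 66.4 normalized CPM with TNF. The log2 fold change was 4.85 ± 0.79 (SE), with an adjusted p from edgeR of 0.00128. This change was about the size of that of Ccl20. With a coefficient of variation of 11.5% over the PBS+TNF libraries, Cxcl16 was the least variable of the 7 genes with counts in all of them. Its locus overlaps Med11 and Zmynd15 on the other strand, and that of Cxcl10 overlaps Art3. Whether strand was used in counting is not given in the sources used here, so part of these counts may belong to the partners.

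Cx3cl1 and Ccl25, the remaining constitutive genes, did not pass the test. Cx3cl1 is expressed as a membrane-bound adhesion molecule for Cx3cr1-bearing phagocytes. It was at 3.26, 8.75, 6.14 and 6.41 normalized CPM in PBS+PBS libraries 1 to 4 and at 3.47, 8.02, 11.5 and 17.2 normalized CPM with TNF. The groups overlapped, with a log2 fold change of 0.73 ± 0.51 (SE) and an adjusted p from edgeR of 0.404. Ccl25 was at 7.20, 4.02, 6.99 and 19.7 normalized CPM in PBS+PBS and at 10.6, 2.89, 5.84 and 6.09 normalized CPM in PBS+TNF. Its log2 fold change was -0.59 ± 0.61 (SE) with an adjusted p from edgeR of 0.602, and without PBS+PBS library 4 it was 0.01. A missed threshold does not show that these genes kept their level, and changes of the size seen for Cxcl16 lie far outside these errors. The annotated span of Ccl25 overlaps Elavl1 on the other strand and 5 further loci.

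**Figure D3:**
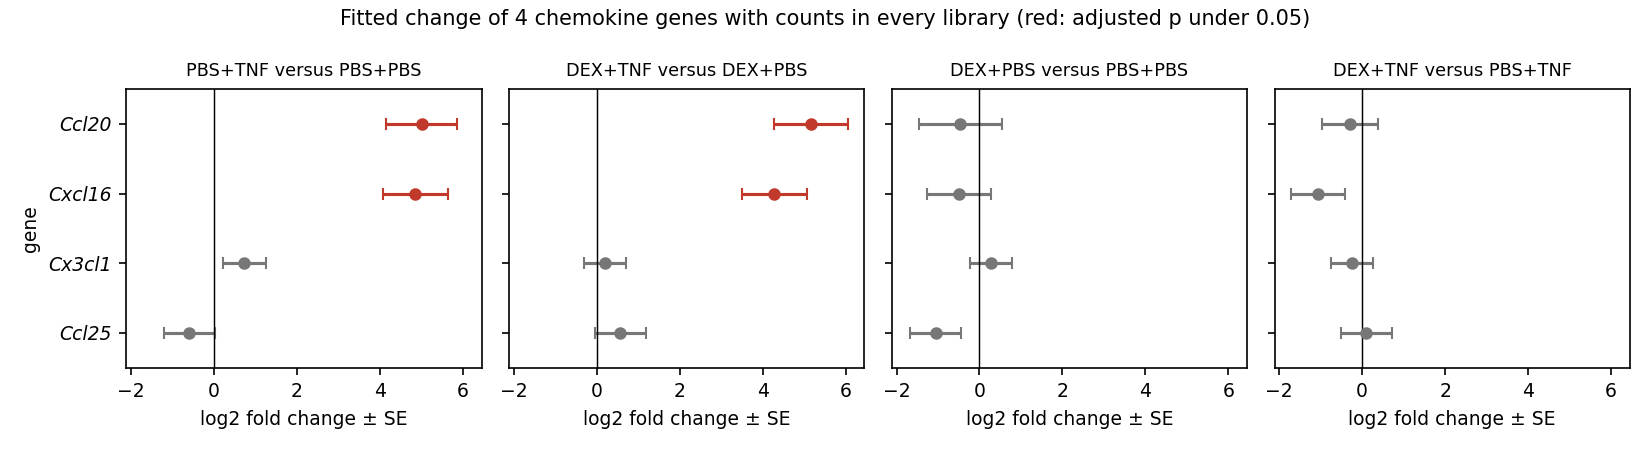
Fitted log2 fold changes with SE (x axis) of the 4 chemokine genes that had counts in every library, in 4 comparisons; red points passed an adjusted p of 0.05. Ccl20 and Cxcl16 lie near 4.3 to 5.2 in both TNF comparisons, Cx3cl1 and Ccl25 lie between -1.05 and 0.73, and no point is red in the DEX comparisons.

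DEX on its own changed none of the 10 genes by the test. In DEX+PBS versus PBS+PBS, edgeR called 0 of the 6 tested members, 0 had an unadjusted p under 0.05, and DESeq2 called 0. Over all genes, 0.00847% were called by edgeR (1 gene), 224 had an unadjusted p under 0.05, DESeq2 called 6, and 1.88% of tested genes had groups that did not overlap. All 6 tested members overlapped. Ccl25 was at 3.28, 3.92, 4.93 and 5.81 normalized CPM in DEX+PBS libraries 1 to 4, a log2 fold change of -1.05 ± 0.62 (SE) with an adjusted p from edgeR of 1. Cxcl16 was at 1.94, 2.29, 1.60 and 1.17 normalized CPM, a log2 fold change of -0.50 ± 0.77 (SE). Cx3cl1 ranged from 3.09 to 15.1 and Ccl20 from 0.241 to 0.802 normalized CPM. Cxcl10 had 5 counts over the DEX+PBS group against 2 over PBS+PBS, and Cxcl1 had 0 against 3. Cxcl1 and Cxcl10 were at or near 0 without TNF, so that a fall was not detectable at this depth.

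After TNF on top of DEX, the same genes were raised in some libraries and not in others. Cxcl10 was at 26.1 and 33.0 normalized CPM in DEX+TNF libraries 1 and 2, at 0 in library 3 and at 0.150 in library 4. Ccl20 was at 36.9, 25.4, 1.43 and 2.64 normalized CPM in DEX+TNF libraries 1 to 4, and Cxcl16 at 65.5, 63.7, 2.65 and 4.34. Every DEX+TNF library lay above every DEX+PBS library for Ccl20 and Cxcl16, and for Cxcl10 and Cxcl1 the groups overlapped.

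In DEX+TNF versus DEX+PBS, Ccl20 rose by a log2 fold change of 5.17 ± 0.89 (SE) and Cxcl16 by 4.28 ± 0.78 (SE), both with an adjusted p from edgeR of 0.0456. Over all genes tested 0.339% were called in this comparison and 0.322% were called higher, and 2.06% had every DEX+TNF library above every DEX+PBS library. Both calls were close to the threshold. They were lost without the filter on low counts, in the fit to the groups compared alone, and when any single library other than DEX+TNF library 3 or 4 was left out, while leaving out either of those 2 libraries gave 4 chemokine genes called. Cxcl1 had 30, 8, 0 and 1 counts in DEX+TNF libraries 1 to 4 and 0 in every DEX+PBS library, at least 12.7-fold higher, and its adjusted p was 0.170. Cxcl10 had 735 counts against 5, a ratio of 143 with a counting interval of 61.0 to 442, and its adjusted p was 0.0807. Cxcl2 had 3, 6, 0 and 2 counts, at least 3.57-fold above DEX+PBS, and its adjusted p without the filter was 0.326. Cx3cl1 (log2 fold change 0.20 ± 0.51, SE) and Ccl25 (0.57 ± 0.61, SE) were not called. Without both DEX+TNF libraries 3 and 4, 1286 genes were called in place of 40, and 5 of the 10 chemokine genes, which were Cxcl1, Cxcl2, Cxcl10, Ccl20 and Cxcl16. The log2 fold changes were then 6.09 for Ccl20, 5.21 for Cxcl16, 8.16 for Cxcl10 and 7.38 for Cxcl1, and that of Ccl25 was -1.24. These libraries were left out for their low TNF-responsive genes, so the gain in calls follows from that choice and is a description only. The DEX+TNF libraries 1 and 2 that remained were also the most alike by their counts of the 24 pairs of libraries within groups.

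DEX+TNF versus PBS+TNF asks whether DEX given beforehand altered the chemokine levels after TNF. None of the 10 genes was called by edgeR or by DESeq2, and among the 6 tested members Cxcl1 was the 1 with an unadjusted p under 0.05. Over all genes, 0.339% were called by edgeR, DESeq2 called 245, and 6.38% had groups that did not overlap. The log2 fold changes were -2.13 ± 0.99 (SE) for Cxcl1 with an adjusted p from edgeR of 0.416, -1.52 ± 1.00 (SE) for Cxcl10 with 0.595 and -1.06 ± 0.66 (SE) for Cxcl16 with 0.558. For Ccl20 the log2 fold change was -0.30 ± 0.68 (SE), and for Cx3cl1 and Ccl25 it was -0.25 and 0.10. Cxcl2, with 11 counts against 97, had an unadjusted p from edgeR of 0.00752 and an adjusted p of 0.332 without the filter, and an adjusted p of 0.116 from DESeq2. Much of these differences came from DEX+TNF libraries 3 and 4. Without both, the log2 fold change was -1.14 for Cxcl1, -0.52 for Cxcl10, -0.14 for Cxcl16, 0.61 for Ccl20 and -1.69 for Ccl25, with no gene called among all tested. In DEX+TNF libraries 1 and 2, Cxcl16 at 65.5 and 63.7 normalized CPM lay just inside and just below the lower end of the PBS+TNF range of 64.5 to 82.6. Cxcl1, at 2.42 and 0.647 normalized CPM, and Cxcl2, at 0.242 and 0.485, reached lower than the PBS+TNF libraries, whose lowest values were 1.87 and 0.963.

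The interaction, which asks whether the change with TNF differed between mice given PBS and mice given DEX, was called for no member. No gene of the 11809 (0%) passed with edgeR, 642 had an unadjusted p under 0.05, and DESeq2 called 8, none of them among the 10. For Cxcl16 the interaction was -0.57 ± 1.01 (log2, SE) and for Ccl20 0.16 ± 1.16 (log2, SE), so that differences of several fold in either direction fall within the error.

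Within a library, the counts of 2 genes can be set against each other with no scaling between libraries. The log2 ratios of the 5 genes that rose (10 pairs, 0.5 added to each count) were compared between DEX+TNF and PBS+TNF, a comparison chosen after the counts had been seen. Cxcl1 to Ccl20 stood at -1.91, -3.28, -2.66 and -2.54 in PBS+TNF libraries 1 to 4 and at -3.91, -5.21, -4.86 and -5.16 in DEX+TNF libraries 1 to 4. With 0.5 added the groups did not overlap, but this rests on the added value in DEX+TNF library 3, where Cxcl1 had 0 counts. At the 3 counts that a 0 allows, its ratio to the 14 counts of Ccl20 would be -2.22 and would lie within the PBS+TNF range. With 0.5 added the mean difference was -2.19, with a two-sided exact permutation p of 0.0286, the smallest that 4 against 4 can give, and an adjusted p of 0.114 over the 10 pairs. None of the 10 pairs passed after adjustment. For Cxcl10 to Ccl20 the ratio was 1.17, 1.18, 0.19 and 1.69 in PBS+TNF and -0.50, 0.38, -4.86 and -3.93 in DEX+TNF, an overlap by DEX+TNF library 2 (exact permutation p of 0.0571, adjusted 0.114). Cxcl2 to Ccl20 differed by -1.73 and Ccl20 to Cxcl16 by 0.90, each with an exact permutation p of 0.0571 and an adjusted p of 0.114. Without DEX+TNF libraries 3 and 4 the difference for Cxcl1 to Ccl20 was -1.96, and that for Cxcl10 to Ccl20 shrank to -1.12.

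**Figure D4:**
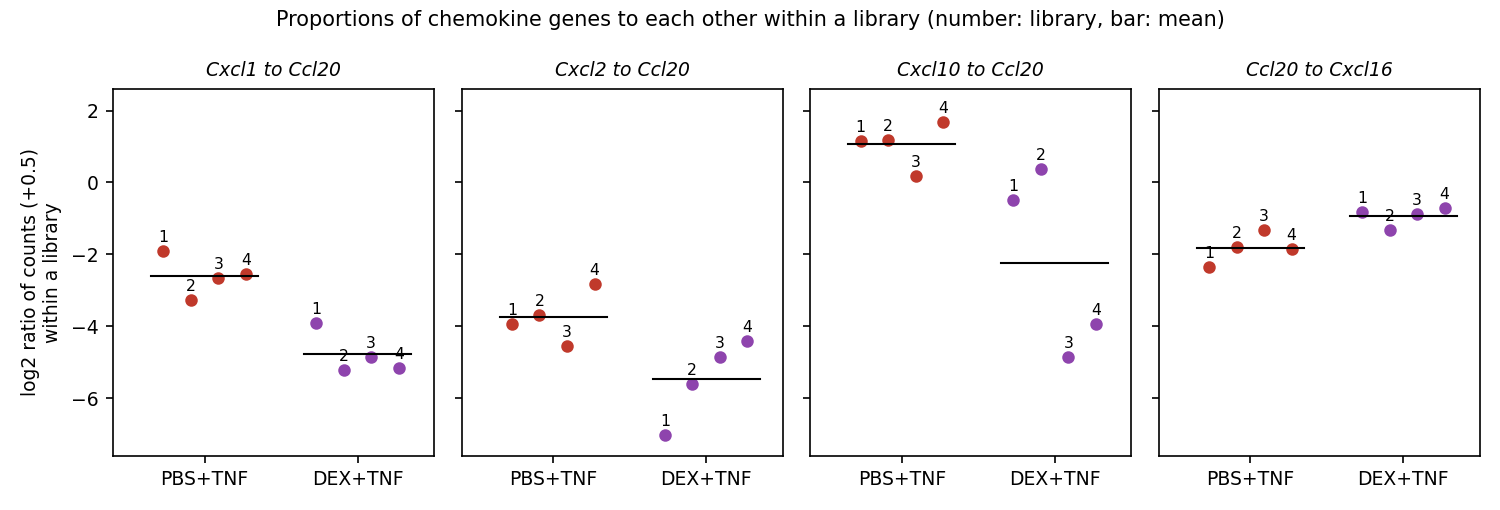
Log2 ratios of the counts of 2 chemokine genes within each library (y axis, 0.5 added to each count) in PBS+TNF and DEX+TNF; points carry the library number and bars are group means. With the added 0.5, Cxcl1 to Ccl20 lies lower in the DEX+TNF libraries than in the PBS+TNF libraries, but DEX+TNF library 3 had 0 Cxcl1 counts and its place there is set by the added value, and Cxcl10 to Ccl20 is lowest in DEX+TNF libraries 3 and 4.

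Across the 16 libraries the genes split along the same line, given here as a description because the libraries share their groups. On log2 CPM, Cxcl1, Cxcl10, Ccl20 and Cxcl16 had Pearson r of 0.919 to 0.984 with each other, between 0.403 and 0.452 with Cx3cl1 and between -0.315 and -0.264 with Ccl25. Of all tested genes, those with the pattern most like Cxcl16 were Parp14 (r = 0.987), Il4i1 (0.985) and Nfkbia (0.984). For Cxcl10 they were Krt36 (0.986), Birc3 (0.985) and Nfkbia (0.984), for Ccl20 Irf5 (0.974), Tnip1 (0.974) and Nfkbia (0.972), and for Cxcl1 Tgif1 (0.962), Ikbke (0.960) and 4930523C07Rik (0.959). Nfkbia, which encodes the NF-kB inhibitor IkB-alpha, thus stood among the top 3 for 3 of the 4. The genes most like Cx3cl1 were Arhgap27 (0.861), Il15 (0.850) and Dnaaf5 (0.812), and those most like Ccl25 included Prxl2b (0.923) and Plac8 (0.900).

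The rest of the chemokine system puts these genes in proportion. The lists of other ligand, receptor and upstream genes were chosen with earlier results of these data known, so counts of calls in them are a description. Of 28 other ligand genes, 15 had no count in any library and 7 were tested. In PBS+TNF versus PBS+PBS 2 of the 7 were called higher (7.15% over all tested genes), with a median log2 fold change of 0.99 against -0.03 over all tested genes. These were Cxcl11, a further Cxcr3 ligand gene, with 1469 counts against 4 and an adjusted p from edgeR of 0.00156, and Ccl28, a mucosal chemokine gene, with a log2 fold change of 0.89 ± 0.21 (SE). Cxcl9, the remaining Cxcr3 ligand gene, had 81 counts against 7 and an adjusted p of 0.0677. Cxcl9 and Cxcl11 passed the filter only through the TNF groups, so that they too had to differ once tested. None of the 7 was called in the other comparisons.

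The chemokine counts of these cells were dominated by Ccl6 and Ccl9, ligand genes known mainly from myeloid cells. Ccl6 took 87.8% ± 3.17 (SD, n = 4) of all chemokine ligand counts in PBS+PBS and 64.2% ± 8.22 in PBS+TNF, and Ccl9 took 11.3% ± 2.87 and 27.7% ± 5.83. Ccl9 itself was at 423 ± 241 normalized CPM in PBS+PBS and 839 ± 389 in PBS+TNF, with an adjusted p from edgeR of 0.144. The 10 genes together took 0.540% ± 0.208 of the ligand counts in PBS+PBS and 6.18% ± 3.31 in PBS+TNF, higher in 4 of 4 libraries (two-sided exact permutation p of 0.0286, adjusted 0.114 over 4 comparisons). They took 0.447% ± 0.270 in DEX+PBS and 3.05% ± 2.43 in DEX+TNF (exact permutation p of 0.0857, adjusted 0.171). The 10 genes were chosen with earlier results of these data known, so these shares and their p values are a description and not a test. Within DEX+TNF the share was 5.17, 5.03, 0.313 and 1.70% in libraries 1 to 4, so that libraries 1 and 2 fell within the PBS+TNF range of 2.49 to 10.5% and library 3 within the DEX+PBS range of 0.196 to 0.809%.

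**Figure D5:**
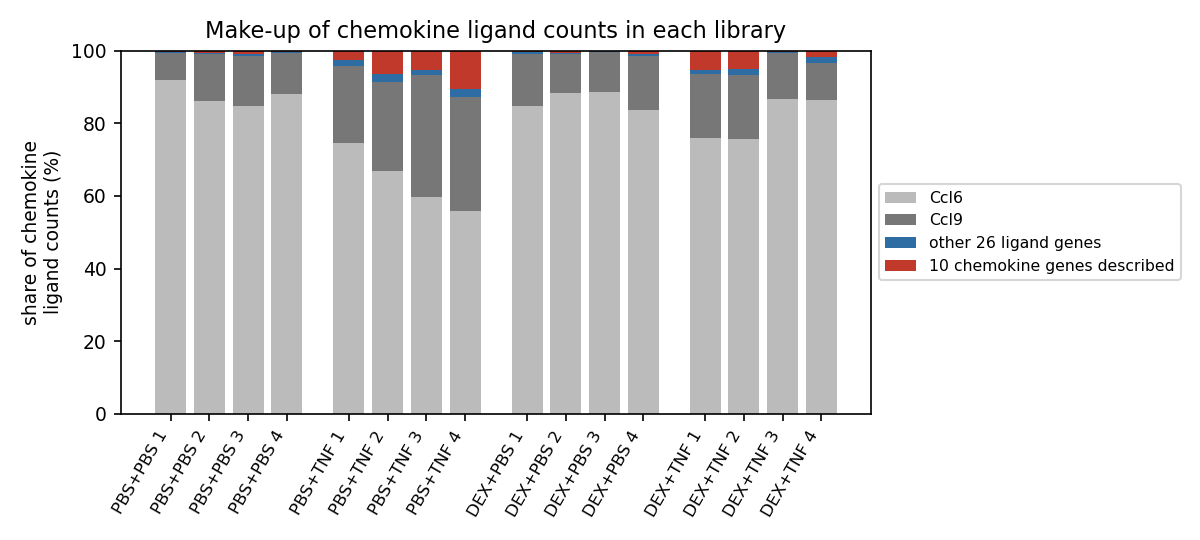
Share of all chemokine ligand counts (y axis, percent) taken by Ccl6, Ccl9, the other 26 ligand genes and the 10 genes described, in each of the 16 libraries. Ccl6 leads in every library, and the 10 genes take 2.49 to 10.5% in PBS+TNF libraries against 0.345 to 0.826% in PBS+PBS libraries.

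Receptors for most of these ligands were near silent in the sorted cells. Of 23 chemokine receptor genes, 14 had no count and 4 were tested. In PBS+TNF versus PBS+PBS 1 was called higher and 1 lower, where 12.5% of all tested genes were called in either direction. The median log2 fold change of 0.04 lay between opposite changes, -3.28 ± 0.75 (SE) for Cxcr4, -2.11 ± 0.88 for Ackr1, 2.20 ± 0.49 for Ccrl2 and 3.18 ± 1.54 for Ackr4. Ackr1 and Ackr4 were not called (adjusted p from edgeR 0.129 and 0.200), and Ackr4 passed the filter only through the TNF groups. Ccrl2, an atypical receptor that does not signal migration, was called higher at 29.1 ± 4.28 normalized CPM with TNF against 6.33 ± 1.77 without (adjusted p 0.00813). Cxcr4, the Cxcl12 receptor gene, was called lower at 0.439 ± 0.479 against 4.84 ± 2.31 normalized CPM (adjusted p 0.00911). Ccr6, Cxcr2 and Cxcr3, the receptor genes for Ccl20, Cxcl1 and Cxcl10, had 0 counts in all libraries.

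Of 17 genes upstream of chemokine expression (TNF receptors, NF-kB subunits and inhibitors, Irf1, glucocorticoid-response genes and sheddases), all were tested and 12 were called higher in PBS+TNF versus PBS+PBS, where 7.15% of all tested genes were, with a median log2 fold change of 2.24. This list too was chosen with earlier results known, so its share of calls beside that of all genes is a description and not a test. Nfkbia was at 308 ± 24.8 normalized CPM against 20.3 ± 3.88, and Relb, an NF-kB subunit gene, at 87.8 ± 17.4 against 7.02 ± 2.10. In DEX+TNF versus DEX+PBS 5 of the 17 were called higher (Nfkb2, Rel, Relb, Nfkbia and Tnfaip3), where 0.322% of all tested genes were, with a median of 1.57 against 0.03 over all tested genes. Their adjusted p values from edgeR were 0.0456 to 0.0491, and 0 genes were called in this comparison with the groups compared alone or when any single library other than DEX+TNF library 3 or 4 was left out. Tsc22d3, the glucocorticoid-induced leucine zipper gene, was called higher in DEX+TNF than in PBS+TNF with a log2 fold change of 2.00 ± 0.39 (SE) and an adjusted p from edgeR of 0.0344. Dusp1 and Zfp36, which encode a MAP kinase phosphatase and an mRNA-destabilizing protein, had log2 fold changes of -1.26 ± 0.56 and -1.02 ± 0.35 (SE) there and were not called (adjusted p 0.381 and 0.230), with every DEX+TNF library below every PBS+TNF library. In this comparison 0 genes were called with the groups compared alone or without DEX+TNF library 3 or 4. In DEX+PBS Tsc22d3 was at 23.2 ± 3.16 normalized CPM against 12.6 ± 2.95 in PBS+PBS, with no overlap and an adjusted p of 1. In PBS+TNF Tsc22d3 was at 6.08 ± 0.991, a log2 fold change of -1.06 ± 0.38 (SE) from PBS+PBS (adjusted p from edgeR 0.0776). In DEX+TNF it was at 24.1 ± 18.1, from 10.7 to 49.4, with a log2 fold change of 0.06 ± 0.37 (SE) from DEX+PBS. The difference between DEX+TNF and PBS+TNF thus also holds the lower level in PBS+TNF. Adam10 and Adam17, the sheddase genes whose products cut Cxcl16 and Cx3cl1 from the membrane, had log2 fold changes of 0.66 ± 0.30 and 0.74 ± 0.29 (SE) with TNF and were not called (adjusted p 0.163 and 0.108).

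Markers of neutrophils, fibroblasts and endothelial cells were at or near 0. Goblet cell markers summed to 1301 to 9454 CPM of raw totals over all libraries, and stem cell markers to 208 to 1825 CPM. The part of goblet or stem cells in the chemokine counts was not tested. The neutrophil markers (5 of 5, among them S100a8 and S100a9) had 0 counts in every library, as had the T and B cell markers Cd3e, Cd3g, Cd8a and Ms4a1, the fibroblast markers Col1a2, Col3a1 and Lum, and the endothelial markers Cdh5, Kdr, Tie1 and Emcn. The remaining fibroblast and endothelial markers had few counts. Pdgfra had 3 counts over PBS+TNF, 1 over DEX+PBS and 16 over DEX+TNF. Dcn had 2 over DEX+TNF, and Col1a1 had 1 over PBS+TNF. Pecam1 had 3 counts over PBS+PBS, 6 over PBS+TNF, 11 over DEX+PBS and 17 over DEX+TNF. Cd79a, a B cell marker, had 3 counts over PBS+TNF. The macrophage markers Adgre1, Csf1r and C1qb had counts only over DEX+TNF, at 1, 10 and 20. Library 4 of this group had counts for 7 of the 7 genes of the monocyte or macrophage list, against 3, 2 and 3 in libraries 1 to 3. Cd68 had 7 counts over PBS+PBS, 11 over PBS+TNF, 5 over DEX+PBS and 16 over DEX+TNF. Cd14, a monocyte marker that NF-kB is also known to induce, had 87 counts over PBS+PBS, 352 over PBS+TNF, 94 over DEX+PBS and 163 over DEX+TNF, and it was called higher with TNF (log2 fold change 1.79 ± 0.47, SE, adjusted p from edgeR 0.0186). C1qa, a macrophage complement gene, had 6, 0, 146 and 19 counts over the same groups. Lyz2, which Paneth cells also express, made most of the summed macrophage list, at 42.5 to 107 CPM of raw totals in PBS+PBS and 43.3 to 47.9 CPM in PBS+TNF. Ptprc, the pan-leukocyte gene, had 22 counts over PBS+PBS, 135 over PBS+TNF, 51 over DEX+PBS and 479 over DEX+TNF. Over DEX+TNF it was the only gene of the T and B cell list with counts. That list summed to 0, 0, 4.39 and 31.5 CPM of raw totals in libraries 1 to 4, and library 4 was also highest in tuft markers. The part of macrophages or other leukocytes in the chemokine counts was not tested. In bulk samples a change in the share of cells that express a gene and a change of RNA per cell cannot be told apart.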

How the data were processed

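RNA-seq of purified Paneth cells was analysed in 16 libraries, 4 per group. Per the labels and the study's methods, the authors isolated RNA with the Aurum Total RNA Mini kit, prepared TruSeq Stranded mRNA libraries and aligned reads with STAR to mm39 (GRCm39) with a GENCODE annotation. The submitters' processing notes name FastQC 0.12, STAR 2.7.10a and DESeq2. The counting program and its use of strand and of reads with several positions are not given in the sources used here. The authors deposited raw counts per gene, which are the unit used, for 55414 genes, and no sample column was left unused. Groups were taken from the labels.

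Counts were scaled by TMM and fitted with edgeR 4.0.16 (limma 3.58.1, R 4.3.3) with a robust quasi-likelihood test over all 16 libraries, filterByExpr (11809 genes tested) and Benjamini-Hochberg adjustment per comparison at 0.05. Normalized CPM divides by total counts times the TMM factor, which ran from 0.418 to 1.50. Names, positions and transcript lengths came from GENCODE release 39, which named 54749 of the identifiers, and promoters were read from GRCm39. DESeq2 1.42.0 was an alternative. Scripts were tested on simulated data. Exact permutation tests used scipy 1.17.1. No libraries were copies of the same counts, since libraries of 1 group differed far beyond sampling noise (chi-square over degrees of freedom 9.31 or more in 24 pairs). The 9.31 was between DEX+TNF libraries 1 and 2, the most alike pair, and the next lowest was 25.2 (PBS+PBS libraries 2 and 3). These values cannot show whether libraries came from separate mice. Depth limits a count of 0 to 0.149 to 0.578 normalized CPM. Alternatives were size factors, TMM without Defa genes, no filter, DESeq2, the groups compared alone, a replicate block and leaving out libraries.

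The 10 genes are the named genes, with other ligand, receptor and upstream genes by list and, for each tested member, the 3 genes with the highest r. The members and lists were chosen with earlier results of these data known. Some genes of the lists and 1 promoter are not reported here.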

Additional observations from a re-analysis of the deposited data

Results flagged for a closer look

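Among the 27 sets of 4 libraries of a chemokine gene with counts, 4 had a library far from the other 3 by Dixon's test. In each of them libraries at 0 decide the outcome, so that the rate of about 1 in 20 that chance gives for continuous values is no guide here. Cxcl1 was at 0.192 normalized CPM in PBS+PBS library 2 and 0 in the other 3, which are 3 counts. Cxcl10 was at 0.251 normalized CPM in PBS+PBS library 4 and 0 in the other 3, which are 2 counts. Cxcl5 was at 0.385 normalized CPM in PBS+TNF library 1, which are 2 counts, and Ccl2 was at 0.0990 normalized CPM in PBS+TNF library 4, also 2 counts. Leaving out the PBS+PBS libraries raised the fitted log2 fold change with TNF to 8.53 for Cxcl1 and 12.2 for Cxcl10, values that then rest on a group at 0.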

How the results depend on the processing

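In PBS+TNF versus PBS+PBS, the call of Cxcl16 held under all 22 alternatives. Those of Cxcl1, Cxcl10 and Ccl20 did too, but these genes entered the test only through the TNF groups, so this is no sign of stability. There were 4 to 5 chemokine genes called, while the count over all genes ran from 916 (without PBS+PBS library 1) to 1698 with 1 library left out. DEX+TNF versus DEX+PBS was less stable: against 40 genes and 2 chemokine genes called, there were 6 and 0 without the filter, 0 and 0 with the groups compared alone, 241 and 4 with DESeq2, 1286 and 5 without both DEX+TNF libraries 3 and 4, and 0 to 362 and 0 to 4 with 1 library left out. In DEX+TNF versus PBS+TNF, 0 genes were called with the groups compared alone or without both DEX+TNF libraries 3 and 4, 245 with DESeq2 and 0 to 102 with 1 library left out. DESeq2 called 6 genes in DEX+PBS versus PBS+PBS and 8 for the interaction, and with 1 library left out there were 0 to 2 and 0 to 1.

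The replicate numbers did not pair the libraries throughout (r of same-numbered deviations from -0.365 to 0.504). For replicates 1 to 4, r was -0.0537, 0.412, 0.233 and 0.504 in DEX+TNF versus PBS+TNF. It was -0.0375, 0.234, 0.317 and 0.270 in DEX+TNF versus DEX+PBS, so a partial pairing in these comparisons is not excluded. With the numbers as a block, 1482 genes were called in PBS+TNF versus PBS+PBS, 0 genes and 0 chemokine genes in DEX+TNF versus DEX+PBS (adjusted p from edgeR of 0.126 for Ccl20 and Cxcl16), and 16 in DEX+TNF versus PBS+TNF. The log2 value of Ccl25 in DEX+TNF versus PBS+TNF was then -0.27, and the interaction of Ccl20 -0.41.

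Values that were not called in their own comparison changed sign. Without both DEX+TNF libraries 3 and 4, the log2 value of Ccl25 was -1.24 in DEX+TNF versus DEX+PBS and -1.69 in DEX+TNF versus PBS+TNF, where Ccl20 was at 0.61 and Cx3cl1 at 0.17, and the interaction of Cxcl16 was 0.36. With 1 library left out, Ccl25 ran from -0.92 to 0.013 in PBS+TNF versus PBS+PBS, from -0.42 to 0.89 in DEX+TNF versus DEX+PBS and from -0.89 to 0.46 in DEX+TNF versus PBS+TNF. Cx3cl1 ran from -0.061 to 0.84 in DEX+TNF versus DEX+PBS, from -0.35 to 0.53 in DEX+PBS versus PBS+PBS and from -0.51 to 0.14 in DEX+TNF versus PBS+TNF. In DEX+PBS versus PBS+PBS, Cxcl10 ran from -0.35 to 3.53 and Ccl20 from -0.76 to 0.020. Ccl20 ran from -1.05 to 0.081 in DEX+TNF versus PBS+TNF, and its interaction from -0.59 to 0.54. The difference in the share of ligand counts between DEX+PBS and PBS+PBS ran from -0.214 to 0.00164 percentage points. The cause of these changes was not tested.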
